A study of Mus musculus with 16 samples.

Results

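The Toll-like receptor and inflammasome genes were described in mammary adipose tissue from mice at normal weight, with obesity, or after weight loss by diet or by surgery. They were 9 genes of the 23179 in the deposited table, chosen by name: the receptors Tlr2, Tlr4, Tlr7 and Tlr9, the co-receptor Cd14, the adaptor Myd88, and the inflammasome genes Nlrp3, Pycard and Casp1. All 9 passed the filter on low values. RNA-Seq was performed on the ninth fat pad, on the side opposite the tumor, in 16 libraries, with 4 in each of 4 groups. CON-LFD mice ate the low-fat control diet throughout. DIO-HFD mice were made obese on a diet with 60% fat and stayed on it. DIO-LFD mice were made obese in the same way and then moved to the low-fat diet. DIO-VSG mice were made obese in the same way and then received vertical sleeve gastrectomy, in which most of the stomach's outer side is cut away, and ate the low-fat diet afterwards. All mice were wild-type C57BL/6N females, purchased at 8 weeks of age. Surgery followed after 15 weeks on diet, and each mouse that did not have the gastrectomy had a sham operation. All mice, the CON-LFD mice included, also received E0771 cells, a mouse mammary cancer line, in the fourth fat pad 22 weeks into the study, and tissue was taken 4 weeks later. DIO-VSG thus combined surgery with a change of diet, and every group carried a tumor.

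Toll-like receptors bind molecules that are common to microbes, and some that are released from damaged cells. Tlr2 and Tlr4 sit at the cell surface, and Cd14 hands lipopolysaccharide to Tlr4, whereas Tlr7 and Tlr9 read RNA and DNA inside endosomes. All 4 receptors signal through Myd88, which leads to activation of NF-kB and cytokine transcription. The inflammasome is a cytosolic complex in which the sensor Nlrp3 gathers Pycard, an adaptor also called ASC, so that the protease Casp1 becomes active and cuts the precursors of interleukin 1 beta and interleukin 18. Macrophages express much of this set. Tlr7 and Tlr9 are also expressed in B cells and plasmacytoid dendritic cells.

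Promoter sequences are shown for Tlr9, Pycard and Casp1 because their libraries lay higher in DIO-VSG than in DIO-LFD without overlap. RefSeq promoters of build GRCm38.p6, each with 250 bases before the start site and 50 after it, were matched for 6 of the 9 genes: Tlr2, Tlr9, Myd88, Nlrp3 (at 2 start sites), Casp1 and Pycard. The promoters of Tlr4, Tlr7 and Cd14 were not examined. Capitals mark matches on either strand to GAGGAA (the core of the PU.1 motif), GAAANNGAA (interferon-stimulated response element core), TGANTCA (AP-1) or GGGANTTCC (NF-kB). The sequences run 5′ to 3′ on the strand of the gene, at chr9:106222348-106222647 (+ strand) for Tlr9, chr7:127993818-127994117 (- strand) for Pycard and chr9:5298267-5298566 (+ strand) for Casp1.
Tlr9: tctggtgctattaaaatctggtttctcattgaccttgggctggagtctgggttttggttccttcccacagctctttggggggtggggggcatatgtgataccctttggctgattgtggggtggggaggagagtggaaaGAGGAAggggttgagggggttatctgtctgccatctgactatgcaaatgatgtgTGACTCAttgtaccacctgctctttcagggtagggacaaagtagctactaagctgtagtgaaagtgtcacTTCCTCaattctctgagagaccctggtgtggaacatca
Pycard: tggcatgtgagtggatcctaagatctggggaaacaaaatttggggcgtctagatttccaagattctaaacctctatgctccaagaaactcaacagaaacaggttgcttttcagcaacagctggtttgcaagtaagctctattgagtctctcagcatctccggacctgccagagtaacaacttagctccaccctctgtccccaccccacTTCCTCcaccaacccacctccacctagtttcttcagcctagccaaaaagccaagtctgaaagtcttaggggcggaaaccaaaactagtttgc
Casp1: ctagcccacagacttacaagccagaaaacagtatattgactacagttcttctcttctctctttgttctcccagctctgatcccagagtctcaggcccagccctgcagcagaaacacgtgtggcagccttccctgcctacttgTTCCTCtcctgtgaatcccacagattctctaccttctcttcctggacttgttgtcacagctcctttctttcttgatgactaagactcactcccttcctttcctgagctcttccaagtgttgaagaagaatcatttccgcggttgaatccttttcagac

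GAGGAA was present in all 3 of these promoters. In Tlr9 it began at position -112 from the start site, and again at position 13 on the opposite strand. In Pycard it began at position -42 and in Casp1 at position -108, in both on the opposite strand. The Tlr9 promoter also held TGANTCA at position -58, which the motif's symmetry matches on both strands, and no marked motif overlapped another. Of all 32851 promoters of this length in the table, 28.3% held GAGGAA and 7.81% held TGANTCA, so these letters are common. Among the other matched genes, Tlr2 held GGGANTTCC (1.68% of all promoters), Myd88 held GAAANNGAA (8.56%), and Nlrp3 held GAGGAA 3 times before the start site at chr11:59542436-59542735 and none of the 4 motifs before its other start site. A match describes the letters only.

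All 9 genes were expressed, and all are protein-coding in GENCODE M21 on GRCm38, where Tlr4 lies at chr4:66827584-66930284, Tlr2 at chr3:83836272-83841767, Tlr9 at chr9:106222598-106226883, Casp1 at chr9:5298517-5307265, Pycard at chr7:127989708-127993867 and Nlrp3 at chr11:59541568-59566956. Levels are given as normalized counts, which are reads divided by the size factor of the library, and genes are compared with each other only per kilobase of annotated exon. Per kilobase, the mean over the 16 libraries was 846 normalized counts for Cd14, 708 for Casp1 and 621 for Myd88. It was 330 for Tlr4 and also for Tlr9, 232 for Pycard, 226 for Tlr7 and 205 for Tlr2. Nlrp3 was lowest, at 34.9. Tlr9 varied most between libraries, with its highest level 17.7 times its lowest, followed by Nlrp3 at 8.83 times and Tlr7 at 8.67 times. Myd88 varied least, at 1.57 times. The lowest level of 6 of the 9 genes (Tlr2, Tlr7, Tlr9, Myd88, Nlrp3 and Casp1) was in CON-LFD replicate 2.

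Sequencing was deep, with 46907377 to 57610899 reads per library, and the lowest number of reads behind any level of the 9 genes was 33, for Nlrp3. The labelled tissue matched its markers, as the summed level of 9 adipocyte genes was 385030 to 1477632 normalized counts and all 7 mammary epithelial markers were detected. Muscle content varied. The 4 skeletal muscle markers summed to 1929 to 24357 in CON-LFD, 623 to 2897 in DIO-HFD, 1253 to 108037 in DIO-LFD and 274 to 18173 in DIO-VSG. CON-LFD replicate 4, DIO-LFD replicate 4 and DIO-VSG replicate 2 lay above a gap on this list. Libraries stood apart in lymphocyte genes. The summed level of 11 B cell markers was 403 to 89089 normalized counts in CON-LFD, 1323 to 116710 in DIO-HFD, 21225 to 48269 in DIO-LFD and 80668 to 93195 in DIO-VSG. CON-LFD replicates 2 and 4 and DIO-HFD replicates 2 and 3 lay below a gap on the B cell, T cell and plasmacytoid dendritic cell lists. The 4 DIO-VSG libraries were all higher on the B cell list than the 4 DIO-LFD libraries. The 12 macrophage markers summed to 18135 to 122264 in CON-LFD, 44586 to 55951 in DIO-HFD, 32685 to 61524 in DIO-LFD and 20510 to 56563 in DIO-VSG, and the highest library was CON-LFD replicate 4. Every B cell and macrophage marker reached 10 normalized counts in at least 1 library of each group. In bulk tissue, fewer cells of a type and less RNA per cell cannot be told apart.

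**Figure D1:**
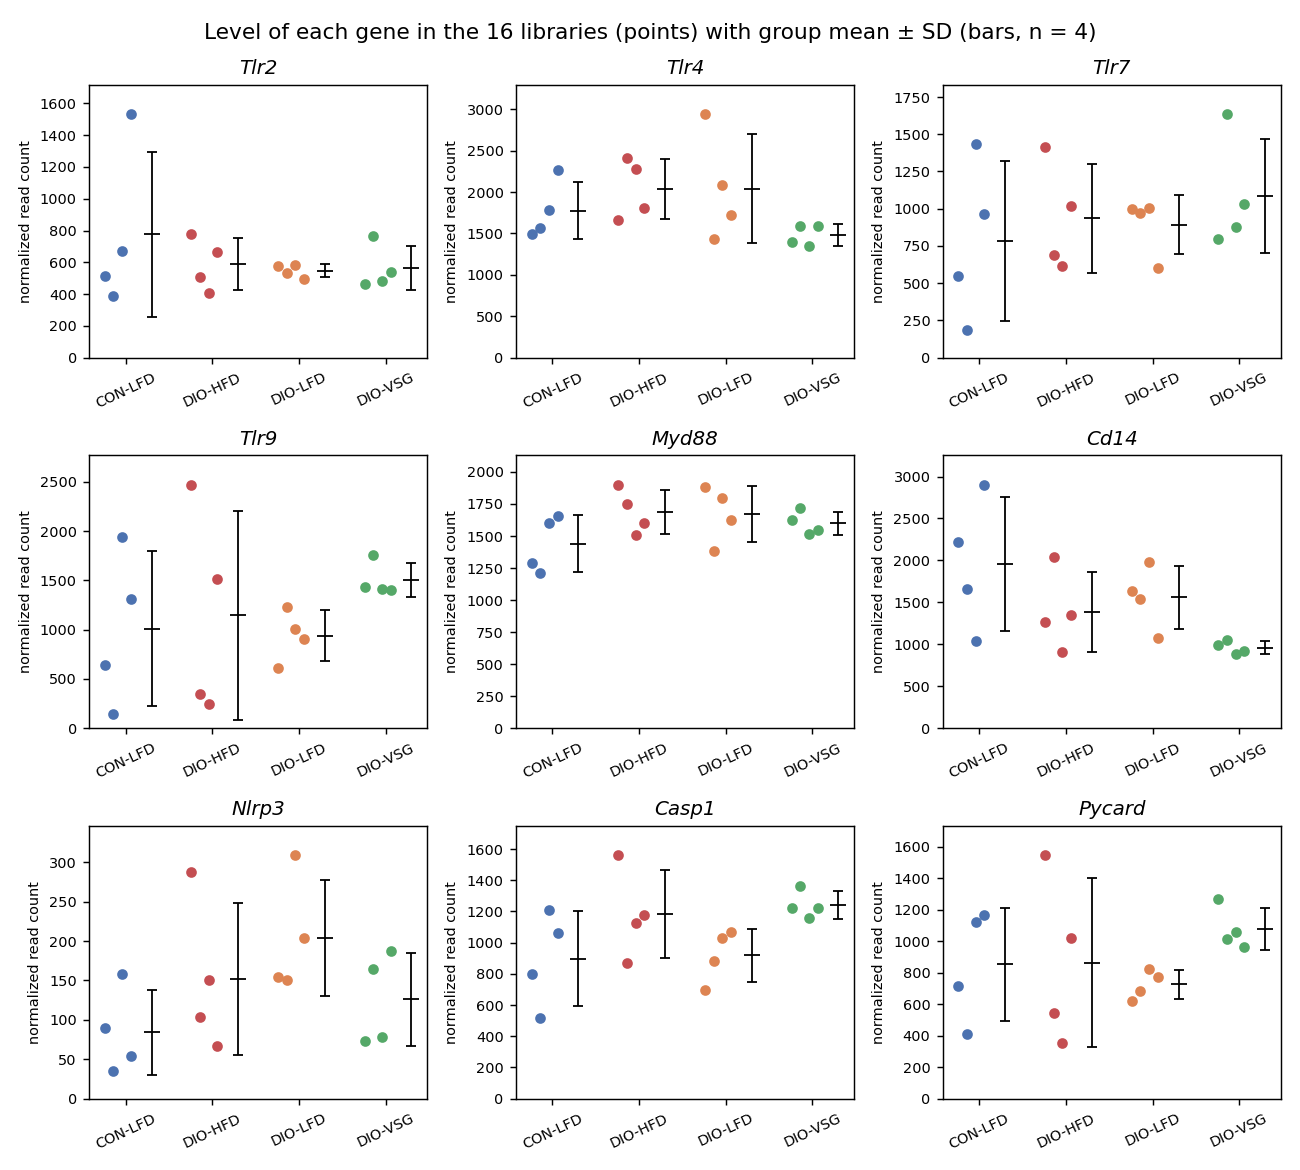
Level of each gene in normalized read counts (vertical axis, linear from 0) by group (horizontal axis), with 1 point per library in replicate order and the group mean ± SD (n = 4) beside the points. The DIO-VSG libraries of Tlr9 lie between 1398 and 1758 while those of DIO-HFD spread from 244 to 2471, and the DIO-VSG libraries of Cd14 lie between 882 and 1053.

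None of the 9 genes passed the adjusted threshold of 0.05 in any of the 6 pairwise comparisons by limma-trend. Few genes of any kind did so. In DIO-HFD against CON-LFD, 8 of 21218 tested genes passed (0.0377%), and in DIO-LFD against CON-LFD 1 passed (0.00471%). In the comparisons of DIO-VSG with DIO-HFD, DIO-LFD with DIO-HFD, DIO-VSG with DIO-LFD and DIO-VSG with CON-LFD the number was 0 (0.0% each), and limma-voom also called none of the 9 genes. The unadjusted limma P value was below 0.05 in 5 of the 54 pairs of gene and comparison, and the libraries of both groups did not overlap in 5 of the 54, beside 11.4% and 7.53% of all pairs of a tested gene and a comparison. Together these were 8 pairs, which involved Tlr4, Tlr9, Cd14, Nlrp3, Casp1 and Pycard, and 2 pairs met both conditions. Weighting libraries by their quality (limma array weights) gave 6 pairs past the adjusted threshold, in fits that called 8.54% to 19.9% of all genes in those comparisons.

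**Figure D2:**
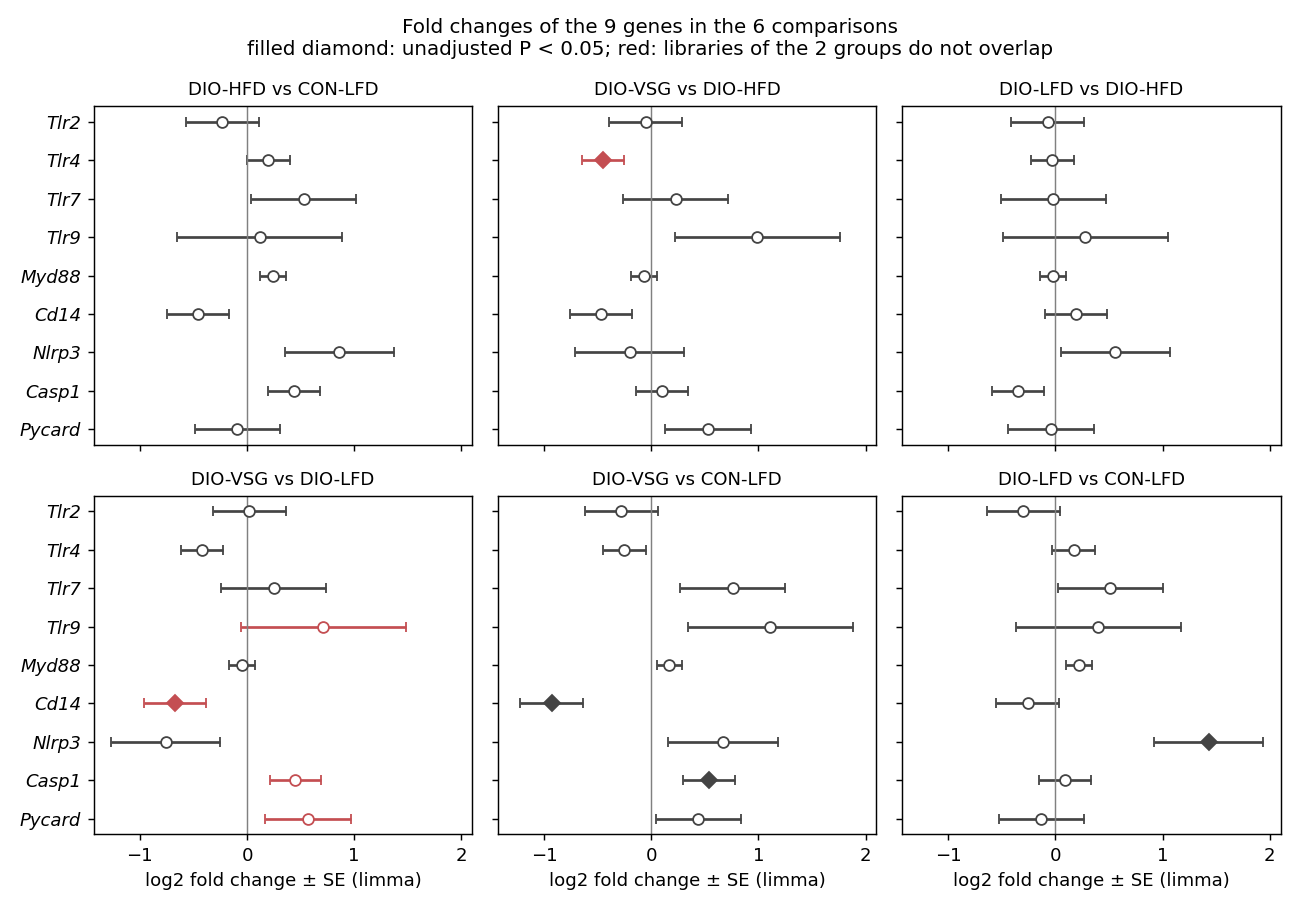
Log2 fold change ± SE from limma (horizontal axis) for the 9 genes (vertical axis) in each of the 6 comparisons, 4 libraries per group. Filled diamonds have an unadjusted P value below 0.05 and red marks pairs whose libraries do not overlap. Red is seen for Tlr4 in DIO-VSG against DIO-HFD and for Tlr9, Cd14, Casp1 and Pycard in DIO-VSG against DIO-LFD.

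Among the surface receptors, Tlr4, the receptor for lipopolysaccharide, was at 1494, 1566, 1788 and 2262 normalized counts in CON-LFD and at 1658, 2417, 2276 and 1809 in DIO-HFD. It was at 2941, 1430, 2080 and 1720 in DIO-LFD, and at 1396, 1591, 1348 and 1590 in DIO-VSG. Every DIO-VSG library was therefore below every DIO-HFD library, whereas DIO-LFD overlapped both. The means were 1481 ± 128 (SD, n = 4) in DIO-VSG and 2040 ± 364 (SD, n = 4) in DIO-HFD, which on the log2 scale was a difference of -0.45 ± 0.20 (SE). This difference did not pass the adjusted threshold (limma adjusted P = 0.367, unadjusted P = 0.0413, exact permutation P = 0.0286, the smallest that 4 against 4 libraries allow). Any 4 against 4 libraries without overlap give this permutation P value, here and below, so it only restates the absence of overlap. Of all tested genes, 13.2% had an unadjusted P value below 0.05 in this comparison and 6.59% did not overlap, against 1 of the 9 genes for each. The count below 0.05 was 0 without DIO-HFD replicate 2, DIO-VSG replicate 1 or DIO-VSG replicate 3 (7.87%, 9.39% and 7.47% of all genes) and 0 with a replicate block (11.8%), and it was 2 without DIO-HFD replicate 1 (27.5%). It was also 0 with the B cell or the macrophage list as a covariate (10.2% and 7.59%) and in the 12 libraries above the gap on the B cell list (6.95%). Tlr4 itself was below 0.05 in 22 of 30 alternative settings, and in 12 of the 16 that left out 1 library. Macrophage markers moved with Tlr4. Over the 16 libraries its correlation with the mean of the macrophage list was r = 0.71 (permutation adjusted P = 0.02, 54 gene and list pairs) and rho = 0.82 (permutation adjusted P = 0.0045). Without CON-LFD replicates 2 and 4, which lay farthest from the median of the list, r was 0.73 and no longer passed (permutation adjusted P = 0.052). With the macrophage list as a covariate the log2 fold change was -0.26, and in the 12 libraries above the gap on the B cell list it was -0.23.

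Tlr2, the receptor for bacterial lipoproteins, was at 511, 387, 673 and 1532 in CON-LFD and at 775, 510, 404 and 666 in DIO-HFD. It was at 574, 532, 582 and 495 in DIO-LFD and at 466, 765, 485 and 538 in DIO-VSG. All groups overlapped, and CON-LFD replicate 4 was far above the other libraries. That library was also the highest on the macrophage list, and at 12.26 it lay above the gap on the skeletal muscle list. The part of the muscle markers in this value was not tested. The correlation of Tlr2 with the macrophage list over 16 libraries was r = 0.75 (permutation adjusted P = 0.0094) and rho = 0.71 (permutation adjusted P = 0.019), but r was 0.48 without CON-LFD replicates 2 and 4 (permutation adjusted P = 0.23), so the relation rests on those libraries. Log2 fold changes of Tlr2 were between -0.30 and 0.02 in the 6 comparisons.

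Cd14, the co-receptor of Tlr4, had its lowest group mean in DIO-VSG. Levels were 2218, 1664, 1034 and 2903 in CON-LFD, 1268, 2038, 903 and 1345 in DIO-HFD, 1641, 1535, 1978 and 1079 in DIO-LFD, and 986, 1053, 882 and 923 in DIO-VSG. The DIO-VSG libraries were close together and all lay below the DIO-LFD libraries, though the gap was narrow, between 1053 and 1079. Against DIO-LFD the means were 961 ± 75 (SD, n = 4) and 1558 ± 371 (SD, n = 4), and the log2 difference was -0.67 ± 0.29 (SE), limma adjusted P = 0.509 (unadjusted P = 0.0388, exact permutation P = 0.0286). Of all tested genes, 9.71% had an unadjusted P value below 0.05 in DIO-VSG against DIO-LFD, as had 1 of the 9 genes. This count was 0 without DIO-LFD replicate 1 or 3 or without DIO-VSG replicate 1, 3 or 4 (5.11% to 8.63% of all genes), and 2 without DIO-LFD replicate 4 or CON-LFD replicate 2 or 4 (7.95% to 10.3%). It was 4 in a fit of both groups alone (25.3%), 5 with array weights (25.9%) and 3 in the 12 libraries above the gap on the B cell list (21.7%). With the B cell list as a covariate it was 0 (10.2%). Cd14 itself was below 0.05 in 22 of 30 alternative settings, and in 10 of the 16 that left out 1 library.

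Against CON-LFD, where the mean of Cd14 was 1955 ± 796 (SD, n = 4), 3 of the 4 control libraries were above every DIO-VSG library and replicate 3 was not. The log2 fold change was -0.93 ± 0.29 (SE), with limma adjusted P = 0.268 (unadjusted P = 0.00676, exact permutation P = 0.0571). This was the lowest unadjusted P value of the 54 pairs. Without CON-LFD replicate 3 the log2 fold change was -1.20 with limma adjusted P = 0.04, in a fit that called 4.11% of all genes, and with array weights it was -1.12 with limma adjusted P = 0.0114. Without CON-LFD replicate 4 it was -0.70, which did not pass. Of all genes, 17.8% had an unadjusted P value below 0.05 in DIO-VSG against CON-LFD and 7.02% did not overlap, compared with 2 and 0 of the 9. The count below 0.05 was 1 without CON-LFD replicate 1 or 2 or any 1 DIO-VSG library (9.72% to 14.5% of all genes), 3 without CON-LFD replicate 3 (30.5%) and 5 with array weights (37.4%).

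The endosomal receptors differed in how the libraries spread. Tlr9, the receptor for unmethylated CpG DNA, was at 636, 140, 1944 and 1307 in CON-LFD and at 2471, 344, 244 and 1516 in DIO-HFD. It was at 607, 1233, 1010 and 909 in DIO-LFD and at 1431, 1758, 1417 and 1398 in DIO-VSG. CON-LFD and DIO-HFD spanned low and high libraries, DIO-LFD lay within their range, and the 4 DIO-VSG libraries were all above those of DIO-LFD. The means were 1501 ± 172 (SD, n = 4) in DIO-VSG and 940 ± 260 (SD, n = 4) in DIO-LFD. On the log2 scale the difference was 0.71 ± 0.77 (SE), with limma adjusted P = 0.677 (unadjusted P = 0.371, exact permutation P = 0.0286). The standard error exceeded the fold change because the fit pooled the spread of all 4 groups. With the B cell list as a covariate the log2 fold change was 0.22, and with the macrophage list it was 1.15.

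Tlr7, the receptor for single-stranded RNA, was at 546, 189, 1432 and 965 in CON-LFD and at 1416, 691, 617 and 1017 in DIO-HFD. It was at 997, 972, 1008 and 601 in DIO-LFD and at 796, 1635, 875 and 1033 in DIO-VSG. Every pair of groups overlapped. Its log2 fold changes were between -0.02 and 0.76, and no unadjusted limma P value was below 0.05.

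Myd88, the adaptor shared by these receptors, was the most even of the 9 genes. Levels were 1290, 1209, 1600 and 1658 in CON-LFD, 1901, 1752, 1511 and 1599 in DIO-HFD, 1881, 1385, 1793 and 1625 in DIO-LFD, and 1626, 1715, 1514 and 1550 in DIO-VSG. The group means were 1439 ± 223, 1691 ± 172, 1671 ± 219 and 1601 ± 89.3 (SD, n = 4), in the same order, and all groups overlapped. The largest difference was 0.24 ± 0.12 (SE) on the log2 scale, in DIO-HFD against CON-LFD (limma adjusted P = 0.431, exact permutation P = 0.2). Exons of Myd88 overlap exons of Acaa1a on the opposite strand, which had a mean of 5135 normalized counts. The library kit keeps strand, but whether counting used it is not given in the sources used here, so reads of Acaa1a in the Myd88 value were not tested.

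Of the inflammasome genes, the sensor Nlrp3 was at 89.4, 35.0, 158 and 54.3 in CON-LFD and at 288, 104, 151 and 67.2 in DIO-HFD. It was at 154, 150, 309 and 204 in DIO-LFD and at 72.6, 165, 78.0 and 188 in DIO-VSG. DIO-LFD had the highest mean, 204 ± 74.0 (SD, n = 4), against 84.1 ± 54.0 (SD, n = 4) in CON-LFD, and CON-LFD replicate 3 overlapped the DIO-LFD libraries. The log2 fold change was 1.43 ± 0.51 (SE), the largest of the 54 pairs, with limma adjusted P = 0.635 (unadjusted P = 0.0142, exact permutation P = 0.0857). It was 1.03 with the B cell list as a covariate, and 0.71 in the 12 libraries above the gap on that list. Of all genes, 6.26% had an unadjusted P value below 0.05 in DIO-LFD against CON-LFD and 3.53% did not overlap, compared with 1 and 0 of the 9 genes. The count below 0.05 was 0 without CON-LFD replicate 2 (6.62% of all genes) and 2 without CON-LFD replicate 4 or DIO-LFD replicate 2 (5.34% and 5.73%).

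Pycard, the adaptor that links the sensor to the protease, was at 718, 408, 1122 and 1170 in CON-LFD and at 1547, 543, 353 and 1018 in DIO-HFD. It was at 622, 686, 825 and 771 in DIO-LFD and at 1266, 1017, 1060 and 964 in DIO-VSG. As with Tlr9, DIO-HFD split into a high and a low pair of libraries and every DIO-VSG library was above every DIO-LFD library. The means were 1077 ± 132 (SD, n = 4) in DIO-VSG and 726 ± 89.8 (SD, n = 4) in DIO-LFD. The log2 fold change was 0.57 ± 0.40 (SE), with limma adjusted P = 0.565 (unadjusted P = 0.173, exact permutation P = 0.0286). In a fit of the 8 libraries of these groups alone, Pycard passed the threshold (limma adjusted P = 0.0316), as did 7.22% of all genes. With the B cell list as a covariate its log2 fold change was 0.33.

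Casp1, the protease, was at 799, 516, 1211 and 1064 in CON-LFD and at 1561, 870, 1125 and 1180 in DIO-HFD. It was at 695, 884, 1027 and 1070 in DIO-LFD and at 1222, 1364, 1157 and 1220 in DIO-VSG. The DIO-VSG libraries were again close together and all above those of DIO-LFD. Against DIO-LFD the means were 1241 ± 87.9 (SD, n = 4) and 919 ± 169 (SD, n = 4). The log2 fold change was 0.45 ± 0.24 (SE), with limma adjusted P = 0.512 (unadjusted P = 0.0792, exact permutation P = 0.0286). Against CON-LFD, with a mean of 898 ± 306 (SD, n = 4), it was 0.54 ± 0.24 (SE), with limma adjusted P = 0.271 (unadjusted P = 0.0406, exact permutation P = 0.0571). This second difference was 0.29 without CON-LFD replicate 2 and 0.18 with the B cell list as a covariate, and with array weights it was 0.58 with limma adjusted P = 0.0277.

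DIO-VSG against DIO-LFD thus held 4 of the 5 pairs without overlap, 3 higher (Tlr9, Casp1 and Pycard) and 1 lower (Cd14). In the same comparison 18.8% of all tested genes did not overlap, 12.9% higher and 5.83% lower, which is the background for these counts. The B cell list did not overlap between these groups either, with means of 12.83 ± 0.11 (SD, n = 4) in DIO-VSG and 11.61 ± 0.57 (SD, n = 4) in DIO-LFD on the log2 scale. With the B cell list as a covariate the log2 differences were 0.22 for Tlr9, 0.34 for Casp1, 0.33 for Pycard and -0.62 for Cd14. Without this covariate they were 0.71, 0.45, 0.57 and -0.67. Over all alternatives except single libraries left out, Tlr9 ranged from 0.22 to 1.15 and Casp1 from 0.34 to 0.6. Pycard ranged from 0.33 to 0.76 and Cd14 from -0.69 to -0.49. The covariate also drew on the libraries below the gap, and it did not overlap between the groups compared. The part of B cells in these differences was therefore not tested.

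In DIO-HFD against CON-LFD the median log2 fold change of the 9 genes was 0.20, beside 0.02 over all tested genes, and the genes lay between -0.46 (Cd14) and 0.86 (Nlrp3). None of the 9 had an unadjusted P value below 0.05 or groups without overlap, against 12.9% and 4.76% of all genes. The count below 0.05 rested on single libraries and on their weights. It was 4 without CON-LFD replicate 3 and 2 without DIO-HFD replicate 2, beside 19.7% and 14% of all genes, and 5 with array weights, beside 37.5%. In DIO-LFD against DIO-HFD the median was -0.02, beside 0.01 over all genes, with a range of -0.35 (Casp1) to 0.56 (Nlrp3). There too neither condition was met by any of the 9, against 8.53% and 4.51% of all genes. In DIO-VSG against DIO-HFD the median was -0.05, beside 0.02, with 4 genes higher and 5 lower. In DIO-VSG against DIO-LFD it was 0.02, beside -0.02, with 5 higher and 4 lower. Against CON-LFD, where 6 genes were higher and 3 lower in both weight-loss groups, the median was 0.44 in DIO-VSG, beside -0.02 over all genes, and 0.17 in DIO-LFD, beside 0.02. These comparisons share libraries, so their fold changes are not independent of each other.

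Of 36 pairs among the 9 genes, 5 had adjusted permutation P values below 0.05 for both Pearson's r and Spearman's rho, all among Tlr7, Tlr9, Casp1 and Pycard. The sixth pair of these 4 genes, Tlr7 with Pycard, did not pass for rho (0.54, permutation adjusted P = 0.1). Tlr9 and Pycard had r = 0.93 and rho = 0.89 (permutation adjusted P = 0.00036 and 0.00072), and r was 0.89 without CON-LFD replicate 2 and DIO-HFD replicate 3 and 0.94 on deviations from the group means. Tlr7 and Tlr9 had r = 0.85 and rho = 0.78 (permutation adjusted P = 0.0018 and 0.0049). Tlr9 and Casp1 had r = 0.78 and rho = 0.85 (permutation adjusted P = 0.0094 and 0.0027). Tlr7 and Casp1 had r = 0.77 and rho = 0.64 (permutation adjusted P = 0.012 and 0.047), and Casp1 and Pycard had r = 0.71 and rho = 0.74 (permutation adjusted P = 0.014 and 0.015). Without the 2 libraries farthest from the median, 3 of these pairs no longer passed: Tlr7 with Tlr9 (r = 0.71, permutation adjusted P = 0.055), Tlr7 with Casp1 (r = 0.68, permutation adjusted P = 0.064) and Tlr9 with Casp1 (r = 0.61, permutation adjusted P = 0.14). On deviations from the group means, Tlr7 with Casp1 (r = 0.78, permutation adjusted P = 0.066) and Casp1 with Pycard (r = 0.77, permutation adjusted P = 0.051) no longer passed. Cd14 and Tlr4 were in none of these pairs. Cd14 had negative r with Tlr7, Tlr9, Myd88, Nlrp3, Casp1 and Pycard, the lowest being -0.51 with Casp1 (permutation adjusted P = 0.11), a pair for which rho was -0.66 (permutation adjusted P = 0.039).

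**Figure D3:**
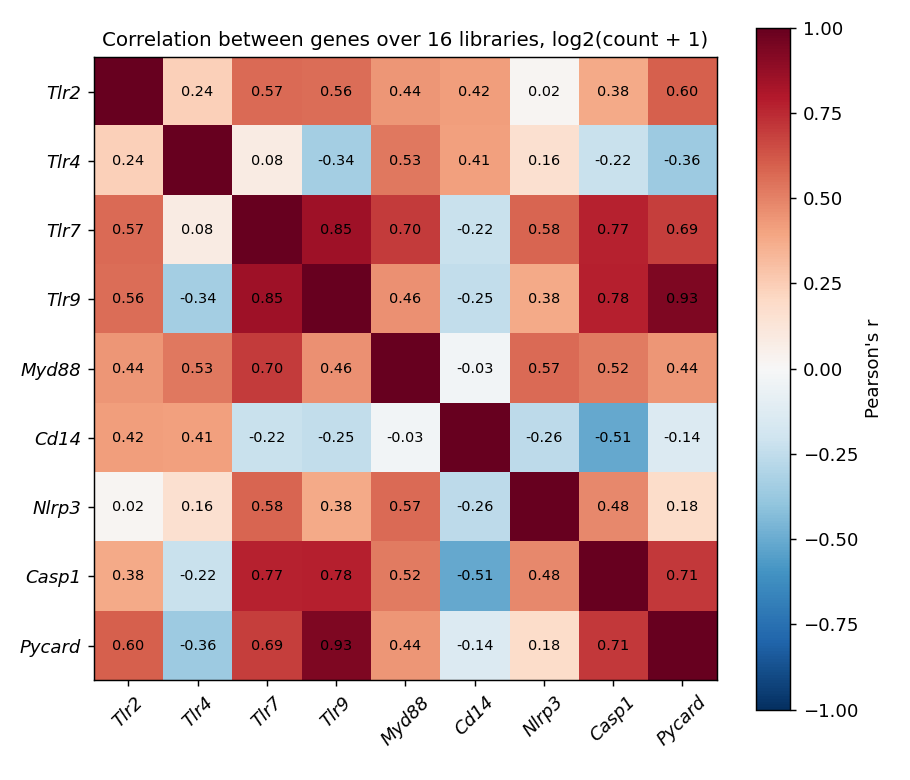
Pearson's r between each pair of the 9 genes (both axes) over the 16 libraries, on log2(normalized count + 1), with r printed in each cell and colored from -1 to 1. Tlr9 and Pycard reach 0.93, and Cd14 is at -0.51 with Casp1.

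Tlr9, Casp1 and Pycard followed lymphoid markers. Because 4 libraries lay below a gap on the B cell list, r was computed within the other 12 libraries. P values were adjusted over 45 pairs of gene and list, in which the endothelium and skeletal muscle lists were computed within 13 libraries each. Tlr9 had r = 0.95 and rho = 0.87 with the B cell list (permutation adjusted P = 0.00015 and 0.0043). Casp1 had r = 0.93 and rho = 0.86 (permutation adjusted P = 0.00018 and 0.0047), and Pycard had r = 0.90 and rho = 0.93 (permutation adjusted P = 0.00022 and 0.0013). Without the pair of libraries farthest from the median of the list, r was 0.87 for Tlr9, 0.82 for Casp1 and 0.92 for Pycard. Cd14 ran the other way, with r = -0.74 and rho = -0.71 (permutation adjusted P = 0.023 and 0.052). Tlr2, Tlr4, Tlr7, Myd88 and Nlrp3 had r between -0.54 and 0.55 with this list, and none of them passed the adjusted threshold. Of the low libraries, CON-LFD replicate 4, at 7.04 on the B cell list, had Tlr9 at 1307 and Pycard at 1170, and it was the highest library on the macrophage list at 12.84. DIO-HFD replicate 3, at 6.40 on the B cell list, had Casp1 at 1125, above all 4 DIO-LFD libraries.

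**Figure D4:**
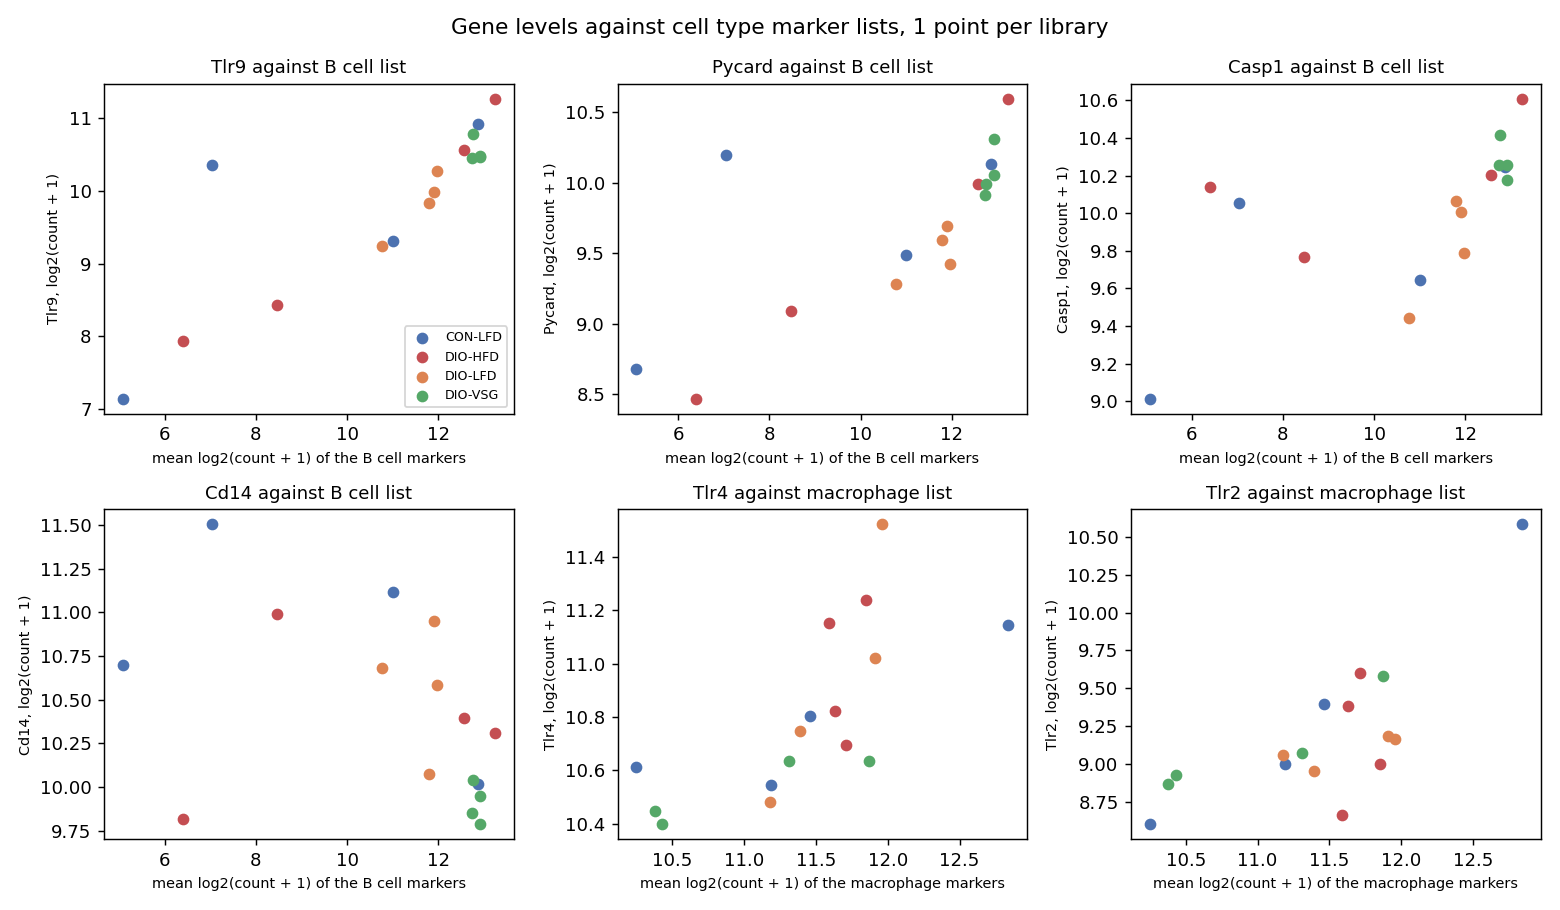
Level of Tlr9, Pycard, Casp1 and Cd14 against the mean of 11 B cell markers, and of Tlr4 and Tlr2 against the mean of 12 macrophage markers, all as log2(normalized count + 1), with 1 point per library colored by group. The 4 DIO-VSG libraries lie together at 12.73 to 12.92 on the B cell list, and 4 libraries of CON-LFD and DIO-HFD lie at 8.47 or below.

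On lists where libraries formed no separate clusters, conventional dendritic cell markers gave r = 0.88 with Tlr9, 0.83 with Pycard, 0.76 with Casp1 and 0.72 with Tlr7 over 16 libraries (permutation adjusted P = 0.0011, 0.0016, 0.0094 and 0.014), with rho = 0.86, 0.67, 0.79 and 0.73 (permutation adjusted P = 0.0038, 0.027, 0.0045 and 0.014). Adipocyte markers gave r = -0.67 with Tlr9, -0.71 with Casp1 and -0.68 with Pycard (permutation adjusted P = 0.027, 0.021 and 0.021), with rho = -0.83, -0.76 and -0.67 (permutation adjusted P = 0.004, 0.012 and 0.027). Without the 2 libraries farthest from the median of each list, r was 0.72 for Tlr9, 0.65 for Pycard, 0.83 for Casp1 and 0.47 for Tlr7 with the dendritic cell list, and -0.67, -0.60 and -0.57 for Tlr9, Pycard and Casp1 with the adipocyte list. After this step the adjusted threshold was passed only by Casp1 with the dendritic cell list. On deviations from the group means none of these 7 pairs passed, with permutation adjusted P = 0.1 to 0.19 for the dendritic cell list and 0.19 to 0.22 for the adipocyte list.

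The genes most like each of the 9 were named by Pearson's r over the 16 libraries among 15454 protein-coding genes, as a description. For Tlr9 they were Blnk, a B cell adaptor (r = 0.99), Lrmp (r = 0.989) and March1, a ubiquitin ligase of MHC class II (r = 0.985). For Pycard they were Ccdc88b, the transcription factor Batf and the kinase Pim2, at 0.971 to 0.982, and for Casp1 they were Uprt, Trpm1 and Adam19, at 0.955 to 0.969. Tlr7 was closest to Cybb, the catalytic subunit of the phagocyte NADPH oxidase (r = 0.952), and Tlr2 to Lst1, a leukocyte gene (r = 0.962). Tlr4 was closest to the transcription factor Mitf (r = 0.951). The closest genes of Myd88, Cd14 and Nlrp3 reached only 0.861 (Synj1), 0.863 (Lrrc49) and 0.851 (Vmn1r32 and Gmppb).

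Other genes of the pathway were read from 7 lists with 78 tested genes, and none passed the adjusted threshold in any comparison by limma-trend. Among the 13 cytokine, chemokine and other target genes, 12 had a higher mean in DIO-HFD than in CON-LFD and 4 of them had an unadjusted limma P value below 0.05, as had 12.9% of all genes (5.23% higher). Nos2, the inducible nitric oxide synthase, averaged 641 ± 352 in DIO-HFD against 297 ± 67.2 in CON-LFD (SD, n = 4) (log2 fold change 0.98, limma adjusted P = 0.26). Ccl2, which attracts monocytes, was at 598 ± 528 and 161 ± 82.6 (log2 fold change 1.55, limma adjusted P = 0.356). The others were Cxcl2 and Il6, both low, with means of 38.9 and 8.73 in DIO-HFD. Il1b, the substrate of Casp1, averaged 93.3 ± 18 in DIO-HFD against 53.1 ± 16.2 in CON-LFD (SD, n = 4), without overlap (log2 fold change 0.83, limma adjusted P = 0.453).

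In DIO-VSG against DIO-HFD, 9 of the 13 targets were lower, 3 of them with an unadjusted limma P value below 0.05. Nos2 was at 208 to 280 normalized counts in DIO-VSG and 353 to 1119 in DIO-HFD, without overlap (log2 fold change -1.26, limma adjusted P = 0.246). Cxcl1, a neutrophil chemokine, was at 62.9 ± 21.9 and 144 ± 58.0 (SD, n = 4), also without overlap (log2 fold change -1.16, limma adjusted P = 0.297). The third was Ptgs2, the inducible cyclooxygenase (log2 fold change -1.26, limma adjusted P = 0.355). In this comparison, 13.2% of all genes had an unadjusted P value below 0.05 (8.12% lower) and 6.59% did not overlap (4.22% lower). Among the other inflammasome sensors 8 of 11 were higher (median log2 fold change 0.36), 1 of them, Naip6, with an unadjusted limma P value below 0.05 (log2 fold change 0.69, limma adjusted P = 0.361), beside 5.05% of all genes in that direction. Of the inhibitors 6 of 9 were higher (median 0.34), none of them below 0.05, and of 19 adaptors, kinases and factors 11 were higher. The other Toll-like receptors were 4 higher and 4 lower. Of 8 receptor partners, 4 were higher and 4 lower, and of 10 inflammasome partners and substrates 6 were higher and 4 lower. One gene of each was lower without overlap. These were Lbp, which carries lipopolysaccharide to Cd14, at -1.50 on the log2 scale (limma adjusted P = 0.309), and P2rx7, the ATP channel that can trigger Nlrp3, at -0.53 (limma adjusted P = 0.283). In the same comparison the macrophage list was at 11 ± 0.72 in DIO-VSG and 11.69 ± 0.11 in DIO-HFD, and the B cell list at 12.83 ± 0.11 and 10.17 ± 3.28 (mean log2, SD, n = 4), and their part in these differences was not tested.

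In DIO-VSG against DIO-LFD, libraries were higher without overlap for 4 of 8 other Toll-like receptors, among them Tlr1 and Tlr6, and for 5 of 11 other sensors, among them the DNA sensor Aim2 and Nlrc4, beside 12.9% of all genes. Tlr1 was at 3063 ± 296 (SD, n = 4) in DIO-VSG and 1317 in DIO-LFD, Aim2 at 1572 ± 236 and 774 ± 117, and Gsdmd, the pore-forming substrate of Casp1, at 1719 ± 197 and 1284 ± 69.0. Gsdmd was the 1 gene of the 10 inflammasome partners and substrates that was higher without overlap. The same held for 3 of 8 receptor partners, 6 of 19 adaptors, kinases and factors and 3 of 9 inhibitors. Of the 13 targets 10 were lower (median log2 fold change -0.33), and 2 of these, Nos2 and Ptgs2, had an unadjusted limma P value below 0.05, beside 5.41% of all genes. Another 2 targets were higher without overlap, Ccl5 and Il12b, and Il12b, a subunit of interleukin 12, was at 116 ± 31.4 and 45.5 ± 13.1 (SD, n = 4). Nos2 was the 1 target lower without overlap, at 242 ± 30.7 and 540 ± 193 (SD, n = 4), beside 5.83% of all genes. Naip5 and Naip6 were also among the sensors, but near-identical Naip copies make their counts uncertain. In DIO-VSG against CON-LFD, 5 of 11 sensors and 5 of 9 inhibitors had higher levels with an unadjusted limma P value below 0.05, beside 10.2% of all genes, among them Aim2 (log2 fold change 1.60, limma adjusted P = 0.268) and Sigirr, an inhibitor of Toll-like and interleukin receptors (0.83, limma adjusted P = 0.268). By the same measure 4 of 19 adaptors, kinases and factors, 3 of 13 targets, 1 of 10 inflammasome partners and substrates, 0 of 8 receptor partners and 0 of 8 other Toll-like receptors had higher levels. Naip1 and Naip6, with the same doubt about copies, were among the 5 sensors, and Pydc3 and Pydc4 were among the 5 inhibitors. Tlr3, a sensor of double-stranded RNA, was the 1 gene of the 7 lists below 0.05 in the lower direction, beside 7.55% of all genes, at 1468 ± 120 in DIO-VSG against 1821 ± 148 in CON-LFD (SD, n = 4) without overlap (log2 fold change -0.31, limma adjusted P = 0.268). The B cell list moved in the same direction in both comparisons, and its part in them was not tested.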

How the data were processed

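The members and the gene lists were chosen with earlier results of these data known. Stranded total RNA libraries were prepared by the authors, who aligned reads to mm10 with STAR, quantified with salmon, dropped genes under 10 counts and normalized with DESeq2, per the methods. The submitters' processing notes instead name TopHat2 2.0.7 and HTSeq 0.5.3p9. The deposited values are variance-stabilized log2 values from 5.36 to 21.85, whereas the design assumed counts. The transformation was inverted, which gave normalized counts that were whole reads (within 0.01) in 100.0% of values. Size factors were 0.9036 to 1.2204, and columns were matched to samples by animal number. Counting error was small beside the spread between mice.

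limma-trend (limma 3.58.1, R 4.3.3) was fitted to log2(normalized count + 1) of all 16 libraries with group as the term, after genes with 10 or more normalized counts in 4 or more libraries had been kept (21218 genes). Tests were two-sided with Benjamini-Hochberg adjustment over all genes within a comparison, at 0.05. Fold changes on this scale understate those of low genes. Exact permutation tests enumerated 70 arrangements of log2 values, and correlations used 100000 permutations (SciPy in Python). In simulated data for DIO-HFD against CON-LFD over 21218 genes, 99 of 100 genes changed 4-fold and 23 of 100 changed 2-fold were called. The simulation gave every gene the same dispersion and held no split in lymphocyte genes. Its rates therefore need not hold for genes that spread widely, such as Tlr9, whose SD in DIO-HFD was 92.3% of its mean. Fold changes and tests were printed for a member and comparison with an unadjusted P value below 0.05 or without overlap, and for pathway lists at most 4 genes per list and comparison by P value, with the other pairs given as ranges. Myd88 and the largest difference of Tlr2 and Tlr7 were given outside this rule. Lists were correlated within the larger cluster where libraries formed 2 clusters (a gap over 0.2 of the range with at least 3 libraries on each side), a rule chosen after seeing the data. Replicates were separate mice by animal number, and no 2 libraries of a group were duplicates. Exon lengths came from GENCODE M21 (GRCm38), in which 95.7% of symbols were found once. Alternatives covered pseudocount, filter, scaling, weights, voom, covariates, a replicate block and each library left out.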

Additional observations from a re-analysis of the deposited data

Results flagged for a closer look

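In 36 sets of 4 libraries (9 genes in 4 groups), 2 held a library whose gap to the nearest other was above Dixon's 95% critical value for the share of the range. Chance gives about 1 in 20 such sets. Tlr7 in DIO-LFD replicate 4 was at 601 normalized counts, below the other DIO-LFD libraries at 972 to 1008, and that library was also the highest of all 16 on the skeletal muscle list (14.36 on the log2 scale). Tlr9 in DIO-VSG replicate 2 was at 1758, above the others at 1398 to 1431, and that library was the highest of all 16 on the neutrophil list (9.76) and, within DIO-VSG, on the macrophage list (11.87). The part of these markers in the values was not tested.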

How the results depend on the processing

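The number of the 9 genes past the adjusted threshold was 0 in 174 of 180 counts under 30 alternative settings. With array weights it was 2 in DIO-HFD against CON-LFD (Casp1 and Cd14), 1 in DIO-VSG against DIO-HFD (Cd14), 1 in DIO-LFD against DIO-HFD (Nlrp3) and 2 in DIO-VSG against CON-LFD (Cd14 and Casp1), in fits that called 4196, 3739, 1811 and 4226 of 21218 genes. In a fit of only both groups it was 1 in DIO-VSG against DIO-LFD (Pycard), beside 1533 genes in all. With 1 library left out it ranged from 0 to 1 in DIO-VSG against CON-LFD, the call being Cd14 without CON-LFD replicate 3, beside 873 genes in all. With a replicate block it was 0 in all 6 comparisons. Same-numbered libraries had correlations of deviations from -0.609 to 0.534, 9 of 24 over 0.1, and 7 of 16 libraries were closest to their own number. These values were set against no reference, so whether replicate numbers pair the libraries was not tested.

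With 1 library left out, the number of genes without overlap ranged from 1 to 2 in DIO-VSG against DIO-HFD (2 without DIO-HFD replicate 3, beside 10.5% of all genes), from 0 to 1 in DIO-LFD against DIO-HFD (1 without DIO-HFD replicate 2, beside 8.13%), from 4 to 5 in DIO-VSG against DIO-LFD (5 without DIO-LFD replicate 2, beside 24.8%), from 0 to 3 in DIO-VSG against CON-LFD (3 without CON-LFD replicate 3, beside 35.8%, and 1 without DIO-VSG replicate 2 or 3, beside 11.6% and 10.4%) and from 0 to 1 in DIO-LFD against CON-LFD (1 without CON-LFD replicate 3, beside 15.2%). In the 12 libraries above the gap on the B cell list, a setting chosen after seeing the data, it was 2 in DIO-VSG against DIO-HFD and 5 in DIO-LFD against DIO-HFD, where 18.1% and 32.6% of all genes did not overlap with 2 DIO-HFD libraries left.

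Of the 14 correlations past the threshold, these no longer passed the adjusted threshold. Without the 2 farthest libraries, r was 0.71 for Tlr7 with Tlr9, 0.68 for Tlr7 with Casp1, 0.61 for Tlr9 with Casp1, 0.48 for Tlr2 and 0.73 for Tlr4 with macrophage, 0.47 for Tlr7, 0.72 for Tlr9 and 0.65 for Pycard with conventional dendritic cell, and -0.67 for Tlr9, -0.57 for Casp1 and -0.60 for Pycard with adipocyte markers. On deviations from group means, r was 0.78 for Tlr7 with Casp1, 0.77 for Casp1 with Pycard, 0.68, 0.87, 0.76 and 0.85 for Tlr7, Tlr9, Casp1 and Pycard with conventional dendritic cell, and -0.69, -0.60 and -0.70 for Tlr9, Casp1 and Pycard with adipocyte markers. Beyond the settings that leave out libraries, the cause of these shifts was not tested. With 4 libraries per group, simulated 2-fold changes were mostly missed.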

Other observations

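Pycard followed the T cell list more closely than any other gene and list pair among the 45 computed within 12 or 13 libraries, with r = 0.96 and rho = 0.97 (permutation adjusted P = 0.00015 and 0.00045, the unadjusted values being the smallest that 100000 permutations can give, 1e-05). Casp1 had r = 0.92 with the T cell list and 0.95 with the plasmacytoid dendritic cell list, and Tlr9 had 0.83 and 0.84. On the T cell list the 4 DIO-VSG libraries were at 11.20 to 11.87 (mean log2), the DIO-LFD libraries at 9.51 to 10.59, the CON-LFD libraries at 6.90 to 11.41 and the DIO-HFD libraries at 6.62 to 11.97. The neutrophil list, which holds S100a8 and S100a9, had its highest mean in DIO-VSG, 7.82 ± 1.38 (SD, n = 4), and its lowest in CON-LFD, 5.57 ± 0.83. Il18, the other cytokine that Casp1 matures, had means of 181 ± 91.3, 212 ± 65.8, 226 ± 83.5 and 228 ± 49.2 normalized counts (SD, n = 4) in control, obese, diet and surgery mice, in that order, with all groups overlapping.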
